A study of Mus musculus with 12 samples.

Results

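The zone difference of liver RNA was compared between male and female mice, as the difference between zone 3 and zone 1 in males minus the same difference in females, called the sex-by-zone difference below. A positive value means that a gene leaned further towards zone 3 in males than in females, and a negative value means the reverse. All 12 arrays of the series entered the comparison, with 3 arrays for each zone of each sex. Of 41174 non-control probes, 28653 passed the scanner's test of being well above background on every array of 1 or more groups, and they gave 16227 tested genes, each read by its brightest kept probe.

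The animals were C3H/HeNCrlBR mice of either sex, with no treatment named in the labels, and no age given. Zone 3 surrounds the central veins of the liver lobule and zone 1 the portal tracts, and both were cut from sections of each mouse by laser capture, with 5 slides used for each zone. RNA was isolated with the Arcturus PicoPure kit, 50 ng was amplified and labelled with Cy3 by the NuGEN Ovation Pico WTA system, and 1 single-colour Agilent array was hybridised per sample. The labels match the captures of an animal's 2 zones by replicate number at most. The p-values therefore treat the 12 captures as independent, although each mouse gave both zones, and they measure the spread between arrays of a group.

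Blood enters the lobule at the portal tracts and leaves at the central vein, and hepatocytes along that path divide their work. Wnt signals from the endothelium of the central vein keep beta-catenin active in zone 3, where glutamine synthesis and much of the cytochrome P450 (Cyp) drug and steroid metabolism take place, while zone 1 is known for the urea cycle and amino acid breakdown. In rodents the sexes also differ in hepatic P450, sulfotransferase and carrier genes, largely through the pulsatile (male) or steadier (female) release of growth hormone, which acts through the transcription factor Stat5b, with Bcl6 as a male-biased and Cux2 as a female-biased regulator. The comparison asks for which genes these 2 axes meet.

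Limma called 12 genes for the sex-by-zone difference at a Benjamini-Hochberg adjusted p under 0.05, 0.074 percent of the genes tested, 7 with positive and 5 with negative values. At an unadjusted p under 0.05 there were 1329 genes, 8.19 percent of those tested, with 4.9 percent positive and 3.29 percent negative. Of the 12 called genes, 6 encode cytochromes P450, a family with 70 tested members. Cyp2a4, Cyp2a5, Cyp2c39 and Cyp2c37 were at like levels in zone 3 of both sexes and far lower in zone 1 of males than in zone 1 of females. Cyp4a12a and Cyp7b1 were high in both zones of males and fell steeply from zone 3 to zone 1 in females. Kcnk1 and Dct were low in zone 3 of females, and Prom1 was low in zone 3 of males. Fads3 had its highest mean in zone 1 and its lowest in zone 3 of males. Sdr16c5 was well above background in zone 1 of males alone, and B3galnt1 was lowest in zone 1 of males.

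**Figure D1:**
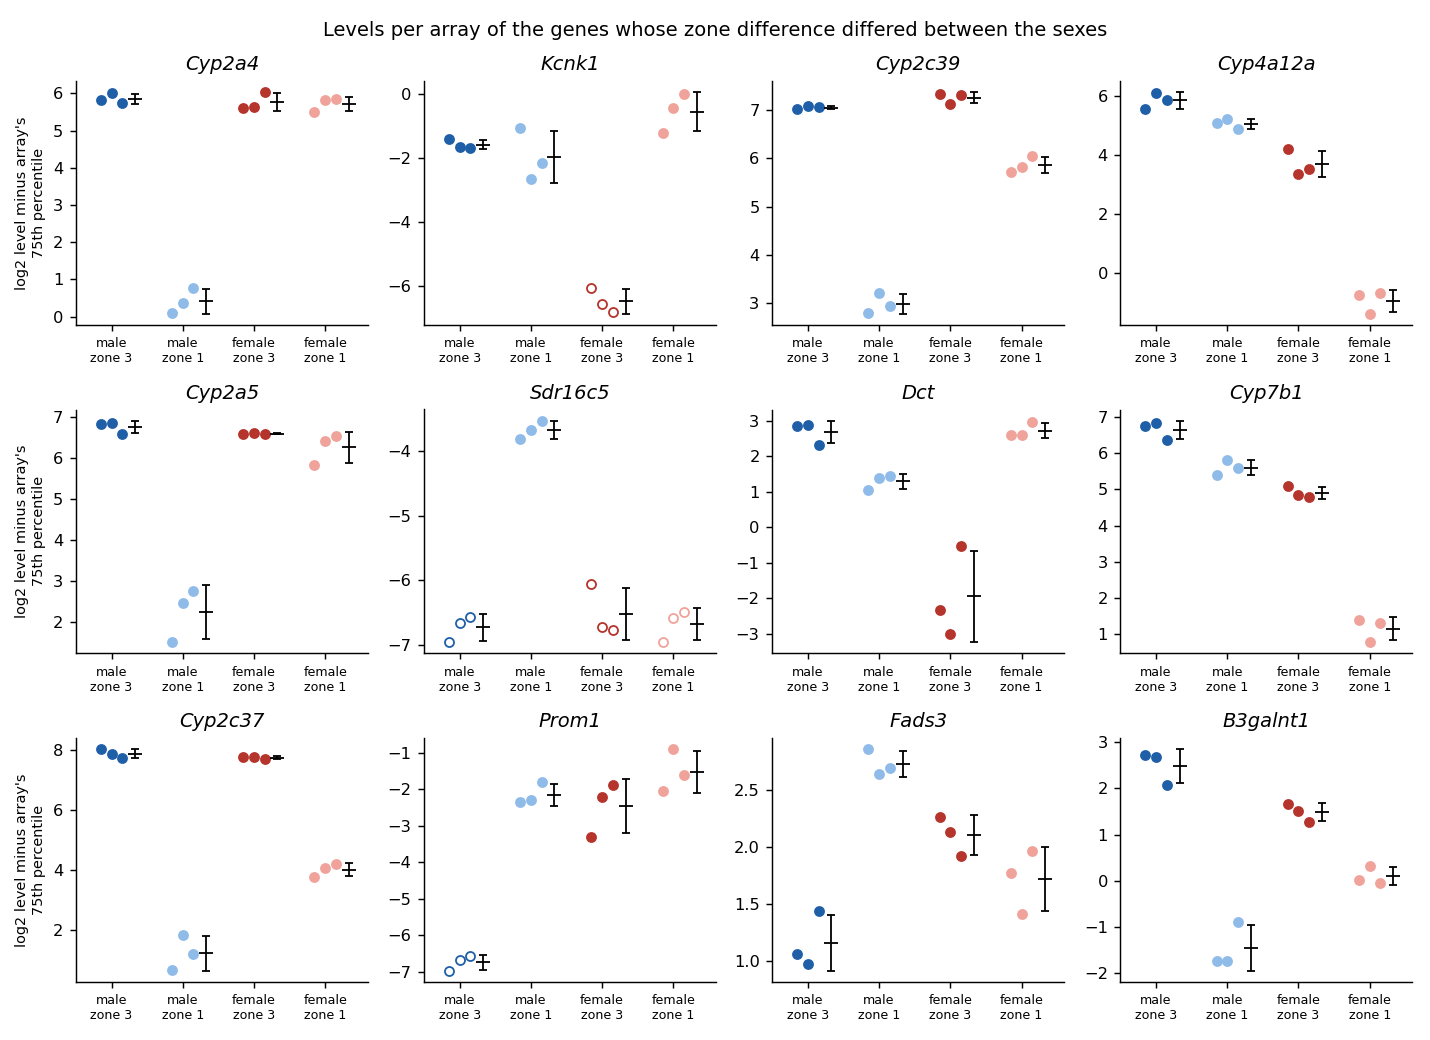
Level of each of the 12 called genes on every array (log2 processed signal minus the array's 75th percentile), in the 4 groups of 3 arrays. Filled points were well above background, open points were not, and the bar beside each group is its mean with the SD. Cyp2a4 sits near 0.41 in male zone 1 and between 5.51 and 6.04 on the other arrays.

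The sequences behind the largest P450 results are shown first, because near-identical copies limit what a probe or a promoter can separate. RefSeq promoters (build GRCm38.p6, 250 bases before to 50 bases after the start of transcription) were given for 9 of the 12 called genes, in 11 entries. Those of Cyp2a4 (chr7:26306942-26307241, plus strand), Cyp2a5 (chr7:26835089-26835388, plus strand) and the first of Cyp2c39 (chr19:39347096-39347395, plus strand) are printed because these genes moved together. The second Cyp2c39 entry lies apart from the first, at chr19:39510572-39510871 (plus strand). Which of them was in use in these livers was not tested. Capitals mark matches on either strand to TTGCNNAA, a C/EBP-type motif, in Cyp2a4 and Cyp2a5, and to ATCAAAG, a TCF/LEF-type motif bound by the partners of beta-catenin, in Cyp2c39.
Cyp2a4: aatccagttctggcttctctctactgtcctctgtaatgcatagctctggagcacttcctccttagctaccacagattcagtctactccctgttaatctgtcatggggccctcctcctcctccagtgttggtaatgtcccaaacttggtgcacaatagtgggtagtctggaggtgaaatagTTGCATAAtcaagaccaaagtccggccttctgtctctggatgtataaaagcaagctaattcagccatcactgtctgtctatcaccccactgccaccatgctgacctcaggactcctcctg
Cyp2a5: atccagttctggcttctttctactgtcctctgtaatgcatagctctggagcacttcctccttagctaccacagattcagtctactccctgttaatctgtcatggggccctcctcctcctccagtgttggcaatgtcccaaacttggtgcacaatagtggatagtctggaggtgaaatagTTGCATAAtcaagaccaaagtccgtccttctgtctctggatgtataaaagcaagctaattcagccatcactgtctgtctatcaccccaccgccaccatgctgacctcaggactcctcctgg
Cyp2c39: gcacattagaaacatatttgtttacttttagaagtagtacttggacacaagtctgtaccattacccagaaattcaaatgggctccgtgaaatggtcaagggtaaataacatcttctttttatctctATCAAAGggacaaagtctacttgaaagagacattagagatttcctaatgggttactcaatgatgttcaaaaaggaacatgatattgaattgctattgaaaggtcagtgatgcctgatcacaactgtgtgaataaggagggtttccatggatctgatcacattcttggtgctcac

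The Cyp2a4 and Cyp2a5 promoters, set against each other with an offset of 1 base and no gap, were identical at 294 of 299 positions (98.3 percent). Those of Cyp2c37 and Cyp2c39 (its first entry only) matched at 112 of 298 positions (37.6 percent) at their best offset of 2 bases, again with no gap. An inserted or deleted base shifts all bases beyond it, so this share does not measure how related these promoters are. The C/EBP-type motif was in 3 of the 11 entries, those of Cyp2a4, Cyp2a5 and Cyp2c37, and in 10.8 percent of all 32851 promoters of this length. The TCF/LEF-type motif was in 2 entries, both of Cyp2c39, and in 3.73 percent of all promoters. The Stat5-type motif TTCNNNGAA, searched because Stat5b carries the growth hormone signal, was in 0 of the 11 entries and in 8.3 percent of all promoters. These matches describe letters in a short window, and their absence says only that these letters are not in that window.

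The array probes for 2 of the genes are printed because each lists transcripts of more than 1 gene. The probe read for Cyp2a4 covers chr7:23210886-23211951 of build mm7 (plus strand), and the one for Cyp4a12a covers chr4:114704243-114705175 (plus strand). Their 60 bases are spread over 1066 and 933 bases of the genome.
Cyp2a4 probe: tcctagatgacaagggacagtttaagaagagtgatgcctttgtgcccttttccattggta
Cyp4a12a probe: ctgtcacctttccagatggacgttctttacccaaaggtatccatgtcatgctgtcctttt

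The Cyp2a4 probe lists RefSeq transcripts of both Cyp2a4 and Cyp2a5, and so does the probe read for Cyp2a5. The Cyp4a12a probe lists Cyp4a12a and Cyp4a12b. The probes read for Cyp2a4, Cyp2a5 and Cyp4a12a can thus each read a near copy, and on the shared probes Cyp2a4 and Cyp2a5 cannot be told apart.

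Cyp2a4, a steroid hydroxylase known for female-biased expression, had the smallest p of all genes tested. Its level (log2 processed signal minus the array's 75th percentile, the scale of all levels below) was 5.81, 6.0 and 5.75 in male zone 3 and 0.10, 0.38 and 0.76 in male zone 1. In females it was 5.60, 5.65 and 6.04 in zone 3 and 5.51, 5.83 and 5.84 in zone 1. The 3 male zone 1 arrays lay far below the other 9, which overlapped. The zone difference was 5.45 ± 0.22 (SE, n = 3 arrays per group), or 43.6-fold, in males and 0.04 ± 0.22 in females, and the sex-by-zone difference was 5.41 ± 0.31 (limma, adjusted p = 1.6e-05). Males minus females gave 0.09 ± 0.22 in zone 3 and -5.31 ± 0.22 in zone 1. A second kept probe gave a sex-by-zone difference of 3.83, with a zone difference of 2.32 in males and -1.51 in females. It too lists both Cyp2a4 and Cyp2a5, so no kept probe reads Cyp2a4 alone.

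Cyp2a5, the coumarin hydroxylase, stood at 6.83, 6.86 and 6.59 in male zone 3 and at 1.5, 2.47 and 2.74 in male zone 1. In females it stood at 6.59, 6.60 and 6.58 in zone 3 and at 5.82, 6.41 and 6.53 in zone 1. Again only the male zone 1 arrays were far from the rest. The zone difference was 23-fold in males (4.52 ± 0.30) and 0.34 ± 0.30 in females, with a sex-by-zone difference of 4.18 ± 0.42 (limma, adjusted p = 0.0017). The other kept probe, whose listed transcripts name Cyp2a5 alone, gave 3.58. Its position (chr7:23212221-23212279, mm7) overlaps that of the second Cyp2a4 probe (chr7:23212199-23212258), which lists both genes. Whether it reads Cyp2a5 alone was not tested, so Cyp2a4 and Cyp2a5 are not shown to be separate results.

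Cyp2c39 and Cyp2c37 belong to the Cyp2c family, enzymes that oxidise arachidonic acid, retinoids and many drugs. The level of Cyp2c39 was 7.02, 7.07 and 7.05 in male zone 3, 2.81, 3.20 and 2.95 in male zone 1, 7.32, 7.12 and 7.31 in female zone 3, and 5.72, 5.81 and 6.05 in female zone 1. No group overlapped another, and the sexes lay 0.21 apart in zone 3 and 2.87 apart in zone 1. It was 16.7-fold higher in zone 3 than in zone 1 of males and 2.62-fold higher in females, a sex-by-zone difference of 2.67 ± 0.25 (limma, adjusted p = 0.0013). With slide as a block the estimate was 2.78 and the adjusted p was 0.0565.

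Cyp2c37 was at 8.05, 7.87 and 7.74 in male zone 3, 0.66, 1.82 and 1.19 in male zone 1, 7.79, 7.77 and 7.72 in female zone 3, and 3.78, 4.06 and 4.19 in female zone 1. The zone 3 groups overlapped, and every male zone 1 array lay below every female zone 1 array. Zone 3 exceeded zone 1 by 101-fold in males and by 13.4-fold in females, with a sex-by-zone difference of 2.92 ± 0.37 (limma, adjusted p = 0.00987). A second probe, which also lists Cyp2c50, gave 2.69. The call was lost with normexp background correction (2.70, adjusted p = 0.0705). It was also lost without male zone 3 replicate 1 and female zone 3 replicate 3 (2.82, adjusted p = 0.115), arrays chosen after seeing the data.

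Cyp4a12a and Cyp7b1 showed the other arrangement. Cyp4a12a, an androgen-dependent omega-hydroxylase of fatty acids, was at 5.56, 6.11 and 5.88 in male zone 3, 5.09, 5.20 and 4.86 in male zone 1, 4.18, 3.34 and 3.51 in female zone 3, and -0.77, -1.40 and -0.71 in female zone 1. No group overlapped another, and female zone 1 was by far the lowest. The zone difference was 0.80 ± 0.27 in males (adjusted p = 0.0958, limma) and 4.64 ± 0.27, or 24.8-fold, in females, so that males exceeded females by 4.51-fold in zone 3 and by 64.3-fold in zone 1. The sex-by-zone difference was -3.84 ± 0.38 (limma, adjusted p = 0.0017), and the second probe, which lists the same pair of genes, gave -4.08. With slide as a block it was -3.71 (adjusted p = 0.154) and was no longer called.

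Cyp7b1, the oxysterol hydroxylase of the alternative bile acid pathway, was at 6.75, 6.85 and 6.37 in male zone 3 and at 5.40, 5.81 and 5.60 in male zone 1. In females it was at 5.09, 4.85 and 4.78 in zone 3 and at 1.37, 0.77 and 1.29 in zone 1. Male arrays of either zone lay above all female arrays. Zone 3 was higher by 2.08-fold in males and by 13.6-fold in females, with a sex-by-zone difference of -2.71 ± 0.31 (limma, adjusted p = 0.0044). The call was lost with normexp (-2.53, adjusted p = 0.261) and with slide as a block (-2.38, adjusted p = 0.269).

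Kcnk1, a potassium leak channel, had a positive sex-by-zone difference that came from the female arrays. In females it was at -6.07, -6.56 and -6.82 in zone 3, not well above background on any array, and at -1.21, -0.43 and -0.02 in zone 1. In males it was at -1.41, -1.65 and -1.69 in zone 3 and at -1.07, -2.65 and -2.16 in zone 1, where the zones overlapped. Female zone 1 was at least 12.9-fold above female zone 3, a bound set by the lowest signal that was well above background on each array. The sex-by-zone difference was 6.31 ± 0.56 (limma, adjusted p = 0.00117). It was 4.06 with dim values raised to that floor (adjusted p = 0.0115) and 1.80 with normexp (adjusted p = 0.992), where it was not called.

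Dct, dopachrome tautomerase of melanin synthesis, was at 2.85, 2.88 and 2.32 in male zone 3, 1.05, 1.39 and 1.45 in male zone 1, 2.60, 2.60 and 2.95 in female zone 1, and -2.33, -3.01 and -0.52 in female zone 3. The female zone 3 arrays lay below all others and were spread over more than 2 log2 units, with replicate 3 the highest. Female zone 1 was 25.4-fold above female zone 3, and the sex-by-zone difference was 6.06 ± 0.68 (limma, adjusted p = 0.00385). The array holds 2 probes for Dct, and only the 1 read here passed the filter on dim probes. Of 9 melanocyte genes looked up after Dct had been seen, 4 were tested and 0 were called by limma. The tested ones were Pmel at 0.78, Sox10 at 0.11, Mitf at -0.25 and Slc45a2 at 0.08, with adjusted p from 0.685 to 0.969. The other 5, Tyr, Tyrp1, Mlana, Mc1r and Oca2, did not pass the filter on dim probes.

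Prom1, a membrane glycoprotein of bile duct and progenitor cells, was not well above background on any male zone 3 array (-6.97, -6.68 and -6.58). It was at -2.34, -2.31 and -1.80 in male zone 1, -3.30, -2.21 and -1.88 in female zone 3, and -2.06, -0.90 and -1.62 in female zone 1. Only the male zone 3 arrays lay apart. Male zone 1 was at least 5.04-fold above male zone 3, and the sex-by-zone difference was -3.65 ± 0.53 (limma, adjusted p = 0.032). It was -1.39 with dim values at the floor (adjusted p = 0.551) and -0.36 with normexp (adjusted p = 0.992), and it was called in 2 of the 12 fits that left out 1 array and in 5 of 11 other settings. Of 21 tested bile duct markers 0 were called by limma for the sex-by-zone difference, with 0 positive and 1 negative at an unadjusted p under 0.05 and a median of -0.16, while 12 were lower in zone 3 in males and 12 in females. Their summed level ranged from 6.58 to 7.06 in male zone 3 and from 6.23 to 6.37 in female zone 3. In zone 1 it ranged from 6.97 to 7.44 in males and from 6.98 to 7.46 in females. The sum adds linear levels, so its brightest members weigh most. In zone 3 of males and females, Krt18 was at 6.20 and 5.68 and Krt8 at 4.56 and 3.88. Other members went either way, with males minus females in zone 3 at -0.62 for Krt19 and 1.54 for Krt23. The part of bile duct cells in the Prom1 result was not tested. In captured tissue fewer cells of a type and less RNA per cell cannot be told apart.

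Sdr16c5, a retinol dehydrogenase, was well above background in male zone 1 alone, at -3.81, -3.67 and -3.52. The other 9 arrays lay between -6.96 and -6.05. Male zone 1 was at least 1.76-fold above male zone 3, and the sex-by-zone difference was -3.22 ± 0.33 (limma, adjusted p = 0.0017). With dim values at the floor it was -1.0 (adjusted p = 0.5), with normexp it was -0.86 (adjusted p = 0.992), and with slide as a block it was -2.82 (adjusted p = 0.194). It was called under none of these.

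Fads3, of the fatty acid desaturase family, was at 1.06, 0.97 and 1.43 in male zone 3, 2.87, 2.65 and 2.69 in male zone 1, 2.27, 2.13 and 1.92 in female zone 3, and 1.77, 1.41 and 1.96 in female zone 1. Male zone 1 was above all other arrays, and the female zones overlapped. It was 2.99-fold higher in zone 1 than in zone 3 of males, with a sex-by-zone difference of -1.97 ± 0.29 (limma, adjusted p = 0.0359), and a second probe gave -0.95.

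B3galnt1, a glycosyltransferase that makes the glycolipid globoside, was at 2.73, 2.67 and 2.07 in male zone 3, -1.75, -1.73 and -0.89 in male zone 1, 1.67, 1.51 and 1.28 in female zone 3, and 0.02, 0.32 and -0.04 in female zone 1. The groups did not overlap, and the male zones enclosed the female zones. Zone 3 was higher by 15.5-fold in males and by 2.62-fold in females, a sex-by-zone difference of 2.56 ± 0.38 (limma, adjusted p = 0.0364), and a second probe gave 1.25. When 1 array was left out, Fads3 was called in 3 and B3galnt1 in 2 of the 12 fits, with adjusted p of up to 0.136 for both. Under 12 other settings of the processing or the fit, Fads3 was called in 4 and B3galnt1 in 5. With normexp Fads3 was at -1.77 (adjusted p = 0.266) and B3galnt1 at 1.44 (0.992), with slide as a block at -1.91 (0.43) and 3.06 (0.242), and with the mean of a gene's kept probes at -1.46 (0.28) and 1.91 (0.379).

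Slide runs with the groups. Males filled slide 1, with all 3 arrays of zone 3 and replicate 1 of zone 1. Females filled slide 3, with all 3 arrays of zone 1 and replicate 3 of zone 3. The remaining arrays, male zone 1 and female zone 3, shared slide 2, and slides coincide with scans. A fit with slide as a block takes the male zone difference from slide 1 and the female one from slide 3, where 1 zone has a single array, and it called 5 genes, all positive. These were Cyp2a4 (5.45), Kcnk1 (5.76), Cyp2a5 (4.93), Dct (4.87) and Cyp2c37 (3.52). The zone difference of Cyp2a4 within slide 1 (males) was 5.76 and within slide 3 (females) 0.31, and that of Cyp4a12a was 0.76 and 4.47. The 12 genes kept their sign under every alternative that tested them.

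**Figure D2:**
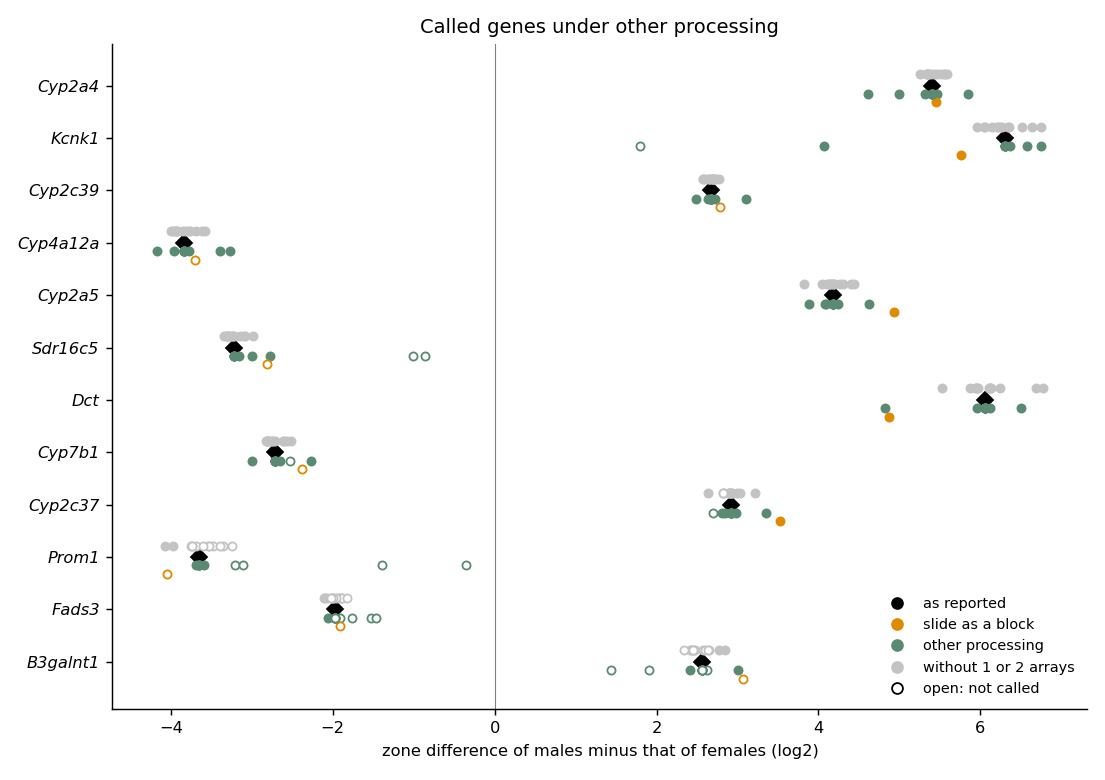
Sex-by-zone difference (log2) of the 12 called genes as reported (black), with slide as a block (orange), under other processing (green) and without 1 or 2 arrays (grey). Filled points were called at an adjusted p under 0.05 and open points were not. Cyp2a4, Cyp2a5 and Dct were called at every point, and Prom1, Fads3 and B3galnt1 at few.

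Zone itself was called for 1512 genes in males, 9.32 percent of those tested, 727 higher and 785 lower in zone 3, and for 1278 genes in females, 7.88 percent, 527 higher and 751 lower. The split depends on scaling. With arrays centred on their median there were 1279 higher and 636 lower genes in males and 705 and 623 in females, and without scaling 201 and 1938 in females. For the sex-by-zone difference no scaling gave 16 positive and 4 negative calls, with the median of all genes at 0.51 in place of 0.07.

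Most genes with a zone call in 1 sex alone had no sex-by-zone call, though the share with one was above the 0.074 percent of all genes. The zone and sex-by-zone tests use the same arrays. Of 702 genes called for zone in males and not in females, 5 had a sex-by-zone call, namely Cyp2a4, Cyp2a5, Sdr16c5, Prom1 and Fads3. Of 468 genes called in females and not in males, 3 had one, Kcnk1, Cyp4a12a and Dct. Of 808 genes called in both sexes with the same sign, 4 had one, Cyp2c39, Cyp7b1, Cyp2c37 and B3galnt1, which differed in the size of the zone difference and not in its direction. The 2 genes called in both sexes with opposite signs had none, and of 14247 genes called for zone in neither sex 0 had one. Just outside the threshold, 9 genes had an adjusted p from 0.05 to 0.1, 7 positive and 2 negative, among them Enpp6, an enzyme of choline metabolism, at -6.39 (limma, adjusted p = 0.0638) and A1bg, a plasma glycoprotein of the female-biased list, at 4.62 (adjusted p = 0.0891), both named after their values were seen. The median standard error of the sex-by-zone difference was 0.39, against 0.28 for zone in 1 sex.

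**Figure D3:**
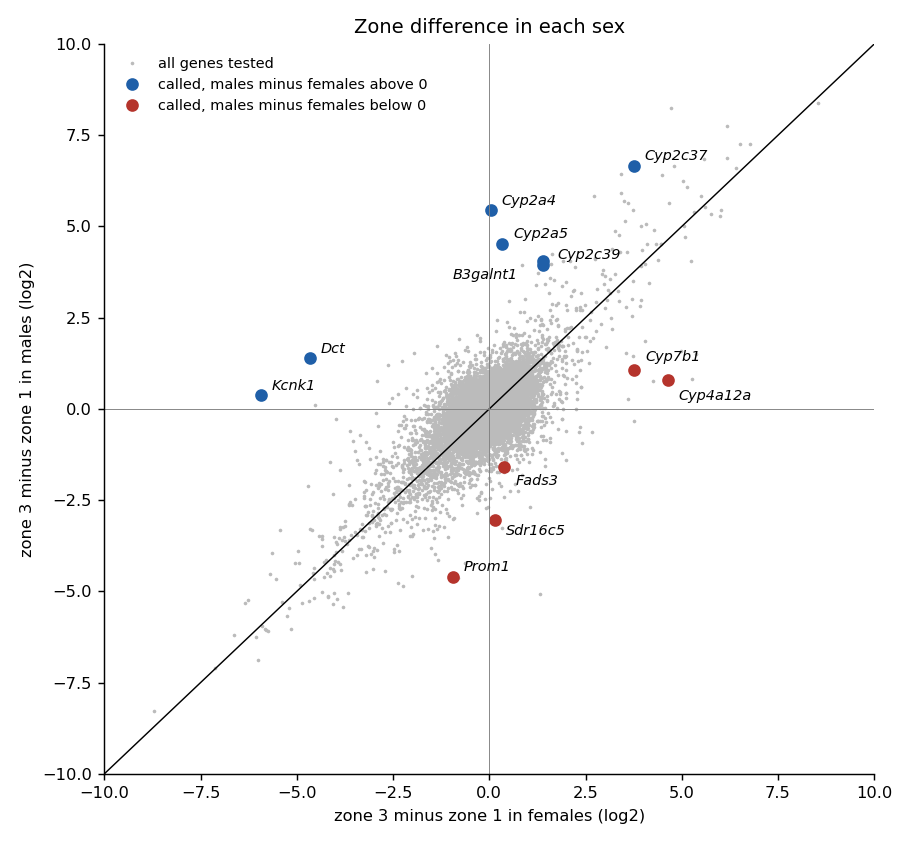
Zone 3 minus zone 1 (log2) in males against the same in females, for 16227 genes (grey), with the line of equal differences. The 7 called genes above the line (blue) and the 5 below it (red) are named. Kcnk1 and Dct lie to the left, where female zone 3 was low, and Cyp4a12a and Cyp7b1 to the right, where female zone 1 was low.

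Relatives of the called P450 genes were then read by symbol, a grouping made after the results were seen. Of 10 tested Cyp2c genes, 8 had a positive sex-by-zone difference at an unadjusted p under 0.05, 2 of them called, and the family's median was 1.45. Over all genes tested, 4.9 percent were positive at that unadjusted p, 0.074 percent were called and the median was 0.07. Its median zone difference was 3.71 in males and 1.64 in females. Cyp2c54, at 3.02 (limma, adjusted p = 0.0732), and Cyp2c38, at 2.49 (adjusted p = 0.0973), missed the threshold. Males minus females gave 0.02 in zone 3 and -3.00 in zone 1 for Cyp2c54 and -0.15 and -2.64 for Cyp2c38, beside 0.13 and -2.79 for Cyp2c37. The third tested Cyp2a gene, Cyp2a12, stood at -0.19, and Cyp2c66 and Cyp2c23 stood at -0.32 each. Probes of this family can read near copies, and its members are not independent.

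The 4 tested Cyp4a genes, fatty acid hydroxylases under the control of PPAR alpha, were all negative, with a median of -2.36 and zone medians of 1.19 in males and 3.83 in females. Limma called 1 of them, beside 0.074 percent of all genes. At an unadjusted p under 0.05, 3 were negative, beside 3.29 percent of all genes. Cyp4a14, known to be female-biased, was at -0.77, -1.16 and -1.23 in male zone 3, -1.97, -3.25 and -2.72 in male zone 1, 3.73, 4.26 and 3.20 in female zone 3, and -1.87, -0.23 and -1.63 in female zone 1. Only female zone 3 was far above the rest. Its sex-by-zone difference of -3.38 ± 0.63 missed the threshold (limma, adjusted p = 0.13). Cyp4a10 stood at -1.16 (adjusted p = 0.256) and Cyp4a31 at -1.33 (adjusted p = 0.614). The level of Cyp4a12a was higher in males and that of Cyp4a14 in females in both zones, and both had the larger zone difference in females.

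The 6 Cyp3a genes, which oxidise steroids and drugs, were all positive with a median of 0.81, beside 0.07 for all genes tested. Limma called 0 of them, and 4 were positive at an unadjusted p under 0.05, beside 4.9 percent of all genes. Cyp3a44 had the largest value (1.47 ± 0.39, adjusted p = 0.411), followed by Cyp3a41a (1.09 ± 0.32, adjusted p = 0.469). In the Cyp2b family, also of drug metabolism, some members differed between the sexes in both zones. Males minus females was -5.78 in zone 3 and -6.85 in zone 1 for Cyp2b9 and -5.73 and -5.58 for Cyp2b13, with sex-by-zone differences of 1.07 ± 0.48 (adjusted p = 0.607) and -0.15 ± 0.38 (adjusted p = 0.93). Cyp2b10 was at -0.72 ± 0.75 (adjusted p = 0.812), and the Cyp2c gene Cyp2c40 at 0.77 ± 0.27 (adjusted p = 0.541).

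**Figure D4:**
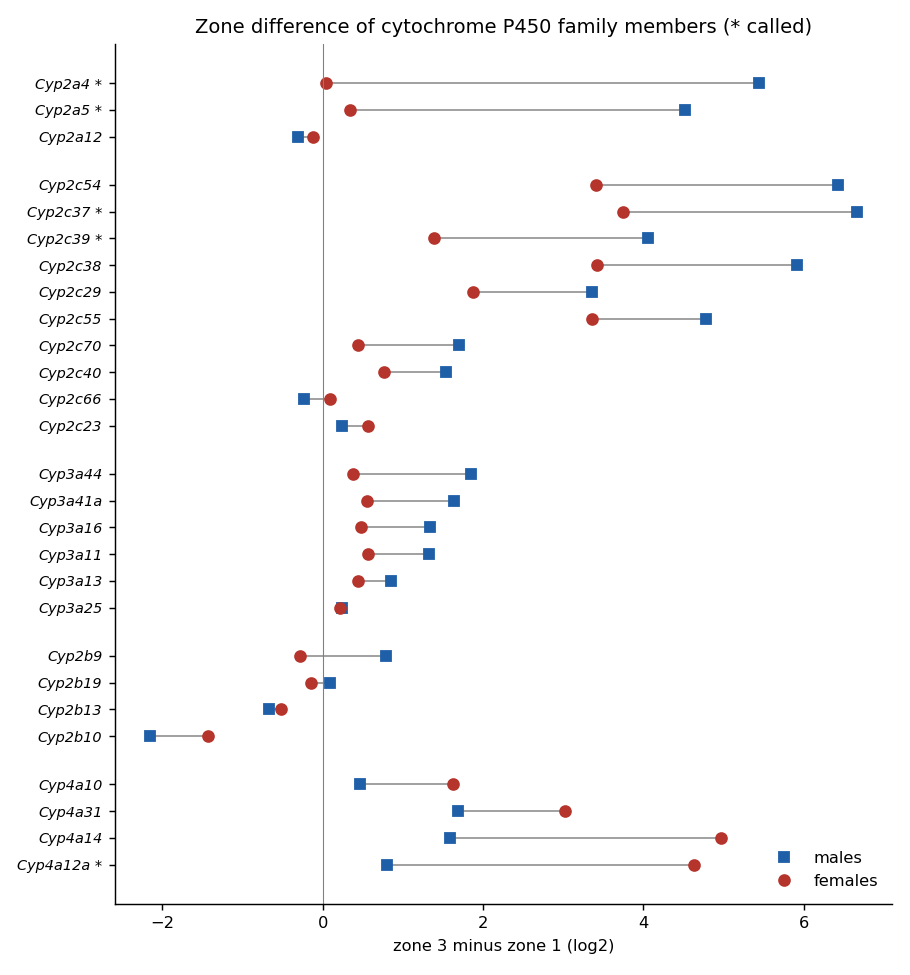
Zone 3 minus zone 1 (log2) in males (blue squares) and females (red circles) for the tested members of 5 P450 families, with called genes starred. Males lie to the right of females for 8 of 10 Cyp2c and all 6 Cyp3a genes, and females to the right of males for all 4 Cyp4a genes.

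Among genes known for a sex difference in liver, some had wide sex-by-zone differences that were not called. Sult3a1, a female-biased sulfotransferase, was at 3.73, 4.89 and 4.30 in female zone 3 and at -0.76, -0.36 and -1.76 in female zone 1, a 38.5-fold difference. In males it was well above background on 1 of 3 zone 3 arrays and 0 of 3 zone 1 arrays, so no male zone difference could be given, and the sex-by-zone value of -4.44 ± 0.87 (limma, adjusted p = 0.149) takes in those dim values.

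Hsd3b5, a male-biased steroid reductase, was at 3.80, 3.77 and 3.82 in male zone 3, 2.34, 2.19 and 2.31 in male zone 1, 2.00, 0.97 and 1.41 in female zone 3, and -2.13, -5.07 and -4.49 in female zone 1. Female zone 1 was lowest, and only replicate 1 was well above background there. Zone 3 exceeded zone 1 by 2.86-fold in males and by at least 33-fold in females, with a sex-by-zone value of -3.84 ± 0.82 (limma, adjusted p = 0.192). The carrier Slco1a1, also male-biased, was 2.89-fold higher in zone 3 of males and 11.7-fold in females (-2.02 ± 0.55, adjusted p = 0.411). Female zone 1 was the lowest group for both genes, as it was for Cyp4a12a and Cyp7b1.

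Elovl3, a male-biased fatty acid elongase, was at 1.19 ± 0.56 (adjusted p = 0.614), with zone 3 higher in both sexes. The sulfotransferase Sult2a2, well above background in females alone, was at 1.15 ± 0.56, the glutathione transferase Gstp1 at -0.58 ± 0.28 and the steroid hydroxylase Cyp17a1 at 0.37 ± 0.43, with adjusted p from 0.627 to 0.828, and the protease Ctse was at 0.01 ± 0.45.

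The wider lists of sex-biased genes did not lean one way. Of 54 tested genes of the female-biased list, Cyp2a4 and Cyp2c39 were called positive and Prom1 negative, with 13 positive and 10 negative at an unadjusted p under 0.05 (42.6 percent in all, beside 8.19 percent of all genes) and a median of 0.10, beside 0.07 for all genes tested. Of 55 genes of the male-biased list, Cyp4a12a and Cyp7b1 were called negative and 0 positive, with 6 positive and 8 negative unadjusted (25.5 percent) and a median of 0.00.

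The xenobiotic phase I list, oxidising enzymes of drug and steroid metabolism, held 4 of the 7 positive calls (Cyp2a4, Cyp2a5, Cyp2c39 and Cyp2c37) among 46 tested genes. In all, 20 members were positive and 4 negative at an unadjusted p under 0.05, which is 52.2 percent of the list beside 8.19 percent of all genes, and the median was 0.40. The pericentral list of 36 genes held Cyp2a5 and Cyp2c37, with 13 positive and 0 negative unadjusted (36.1 percent) and a median of 0.49. Its median zone difference was 4.21 in males and 3.25 in females, and 32 of its genes rose in zone 3 of males and 30 in zone 3 of females. Relative to the median of all genes, the pericentral value ranged from 0.30 with quantile normalization to 0.69 with slide as a block.

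The list of beta-catenin targets, 24 genes that overlap the pericentral list, had 0 calls by limma, 3 positive and 0 negative unadjusted (12.5 percent, beside 8.19 percent of all genes), and a median of 0.01. That median was -0.58 with normexp and 0.23 with slide as a block, or -0.49 and 0.21 relative to the median of all genes. Its zone medians were 4.45 in males and 4.25 in females. The periportal list of 35 genes had 0 calls, 2 positive and 1 negative unadjusted (8.57 percent), and a median of 0.00, which was 0.26 with normexp and -0.06 with slide as a block. The fatty acid oxidation and PPAR alpha list had 1 negative call, Cyp4a12a, among 48 genes, 34 of them negative, with 1 positive and 8 negative unadjusted (18.8 percent) and a median of -0.16. That median became 0.28 without scaling, when the median of all genes was 0.51. The bile acid and organic anion transport list of 39 genes had 1 negative call, Cyp7b1, with 2 positive and 5 negative unadjusted (17.9 percent) and a median of 0.11. The conjugation list of 52 genes (sulfotransferases, glucuronosyltransferases and glutathione transferases) had 0 calls, 7 positive and 2 negative unadjusted (17.3 percent), and a median of 0.25. Lists for the acute phase, cell cycle, cholesterol synthesis, circadian clock, fatty acid synthesis, and gluconeogenesis and glycolysis had 0 calls by limma. So did those for immediate early and heat shock genes, urea cycle, urinary and lipocalin carriers, and the X and Y chromosomes. At most 3 members of such a list had an unadjusted p under 0.05 in 1 direction, and medians ran from -0.12 to 0.21. The unadjusted share in both directions differed between these lists, beside 8.19 percent of all genes. It was 33.3 percent for urinary and lipocalin carriers (3 of 9), 17.6 percent for the cell cycle and 0 percent for cholesterol synthesis.

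**Figure D5:**
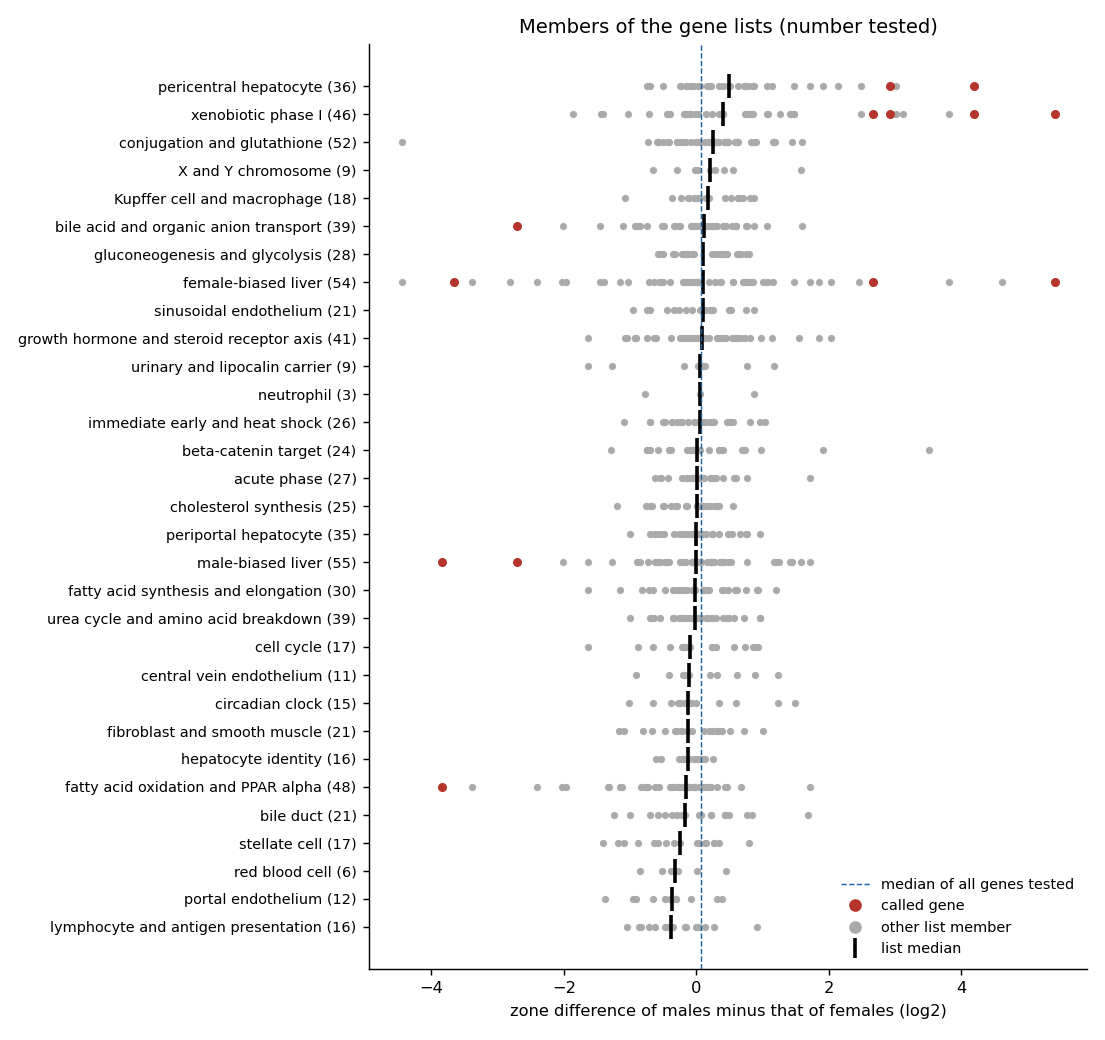
Sex-by-zone difference (log2) of each tested member of 31 gene lists, with called genes in red, the list's median as a bar and the median of all genes tested (0.07) as a dashed line. List medians run from -0.39 (lymphocyte and antigen presentation) to 0.49 (pericentral), and genes may stand in more than 1 list.

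The best known zone markers gave large zone differences in both sexes and no sex-by-zone call. Glul, glutamine synthetase, was at 9.27, 9.42 and 9.34 in male zone 3 and at 3.97, 4.55 and 3.61 in male zone 1, and at 9.85, 9.46 and 9.39 in female zone 3 and at 3.19, 4.51 and 3.02 in female zone 1. The sexes overlapped in both zones. Its sex-by-zone value was -0.70 ± 0.51 (limma, adjusted p = 0.716), beside zone differences of 5.30 and 5.99. The glutamate carrier Slc1a2 was at -0.15 ± 0.70, with 2 of 3 male zone 1 arrays well above background, Cyp2e1 at 0.34 ± 0.42, Cyp1a2 at 0.41 ± 0.30, and Oat, ornithine aminotransferase, at 0.72 ± 0.56. The Wnt feedback gene Axin2 was well above background on all zone 3 arrays and on 0 of 3 zone 1 arrays of either sex, so zone 3 exceeded zone 1 by at least 13.7-fold in males and 10.7-fold in females, and no sex-by-zone difference could be measured. Cyp7a1, which starts the classical route of bile acid synthesis, was at 1.06 ± 0.64 (adjusted p = 0.667).

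In zone 1, Cyp2f2 was at 0.80, 2.10 and 1.84 in male zone 3 and at 7.65, 7.96 and 7.86 in male zone 1, and at 1.06, 0.52 and 1.88 in female zone 3 and at 7.30, 7.11 and 7.26 in female zone 1. Its sex-by-zone value was -0.18 ± 0.52 (limma, adjusted p = 0.937). Gls2, the liver glutaminase, was at -0.24 ± 0.34, Spp1, osteopontin of bile duct cells, at 0.43 ± 0.94 (well above background on 2 of 3 zone 3 arrays of each sex), and Hal, histidine ammonia lyase, at -1.0 ± 0.37 (adjusted p = 0.56). Among all genes tested, the smallest sex-by-zone difference that was called was the -1.97 of Fads3.

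Genes of growth hormone and steroid signalling gave 0 sex-by-zone calls by limma among 41 tested, with a median of 0.08. At an unadjusted p under 0.05, 4 were positive and 5 negative (22 percent, beside 8.19 percent of all genes). Stat5b was at 0.81 ± 0.33 (adjusted p = 0.579), the growth hormone receptor Ghr at -0.10 ± 0.25 and the prolactin receptor Prlr at 0.18 ± 0.25. Bcl6, the male-biased repressor, was higher in males than in females by 2.27 in zone 3 and 1.86 in zone 1, with a sex-by-zone value of 0.41 ± 0.30. Cux2, the female-biased repressor, was well above background on all female arrays, and on 1 of 3 male zone 3 arrays and 0 of 3 male zone 1 arrays (1.86 ± 0.98, adjusted p = 0.643).

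Hepatocyte markers and those of other cells were read in the same way. The hepatocyte identity list (albumin, apolipoproteins and the like, 16 tested) had summed levels from 10.8 to 11.2 on all arrays, and 0 sex-by-zone calls with 0 at an unadjusted p under 0.05. The lists for bile duct, portal endothelium, central vein endothelium, sinusoidal endothelium, and fibroblast and smooth muscle also had 0 calls by limma. So did those for stellate cell, Kupffer cell and macrophage, lymphocyte, neutrophil and red blood cell. At most 3 members of such a list had an unadjusted p under 0.05 in 1 direction. The unadjusted share in both directions ran from 0 percent, as for fibroblast and smooth muscle, to 17.6 percent for stellate cell (3 of 17, all negative). Red blood cell had 16.7 percent and sinusoidal endothelium 14.3 percent, beside 8.19 percent of all genes. Portal endothelium had the median -0.36 over 12 genes, 10 of them negative, with 1 negative at an unadjusted p under 0.05. Its summed level ranged from 2.76 to 3.08 in male zone 3, from 3.19 to 3.38 in female zone 3, from 4.22 to 4.31 in male zone 1 and from 4.26 to 4.36 in female zone 1. The lymphocyte list had the median -0.39 over 16 genes, 12 of them negative, and its summed level in zone 3 was 3.31 to 3.59 in males and 3.70 to 4.22 in females. In zone 1 it was 4.21 to 4.62 in males and 4.47 to 5.03 in females, where the ranges overlapped. Zone 3 captures of males thus held less signal of both lists than those of females, and their part in the called differences was not tested.

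Xist, the RNA that silences an X chromosome in females, was lower by at least 705-fold in males than in females in zone 3, where 2 of 3 male arrays were well above background, and by 503-fold in zone 1. Between 61.5 and 73.9 percent of probes were well above background per array, 0 or 1 probes were saturated, and arrays of a group correlated at 0.956 to 0.981 over genes, as a description. The number of arrays limits the precision.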

How the data were processed

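Liver tissue captured from zone 3 and zone 1 of male and female mice was measured on 12 single-colour Agilent arrays, 1 per sample. The authors deposited scanner files that hold, per the file headers, spot intensity (background-subtracted processed signal) from Agilent Feature Extraction 9.5.3.1 (9.5 in the submitters' processing notes), with gene positions on build mm7. The authors' deposited values of each array equal the processed signal at 45018 of 45018 spots, with medians from 30.6 to 61.6, so they are linear, uncentred and not scaled between arrays.

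From these, log2 of the processed signal minus the array's 75th percentile was computed without 1639 control spots, outlier spots being left out (53 missing values). Probes were named through RefSeq identifiers (23075), symbols in the files (6582), synonyms (3077) or the files' own names (1781), and 6659 had no name. Limma 3.58.1 (in R 4.3.3, the files being read with jsonlite 2.0.0 and version 1.17.8 of data.table) fitted 4 group means to all arrays, with 8 residual and 3.58 prior degrees of freedom. P-values are two-sided and Benjamini-Hochberg adjusted over all 16227 genes, errors are standard errors, and each group has 3 arrays. The scripts were tested on simulated data. Figures were drawn with matplotlib.

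Named are the up to 15 most positive and 15 most negative called genes, every called list member and 40 genes of interest, 39 of them tested (Sult2a1 was not analysed here, and some are not reported here). The comparison, lists and genes of interest were chosen with earlier results of these data known. Alternatives were normexp (offset 50), quantile, median and no scaling, other filters and a floor for dim probes, means over probes, every probe, slide and replicate blocks, a trended robust fit and leaving out arrays.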

Additional observations from a re-analysis of the deposited data

Results flagged for a closer look

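The zone difference differed between the sexes by the test of that difference for the 12 called genes. On the log2 scale, males minus females, the values were 5.41 for Cyp2a4, 6.31 for Kcnk1, 2.67 for Cyp2c39, -3.84 for Cyp4a12a, 4.18 for Cyp2a5 and -3.22 for Sdr16c5. They were 6.06 for Dct, -2.71 for Cyp7b1, 2.92 for Cyp2c37, -3.65 for Prom1, -1.97 for Fads3 and 2.56 for B3galnt1. Limma called each at an adjusted p from 1.6e-05 to 0.0364.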

How the results depend on the processing

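The count of 12 sex-by-zone calls became 7 with normexp (5 shared), 20 without scaling (10 shared), 5 with slide as a block (5 shared) and 23 with a trended robust fit (11 shared). It was 9 to 13 when 1 array was left out, and 10 without male zone 3 replicate 1 and female zone 3 replicate 3, an alternative chosen after seeing the data. The other settings gave 9 to 17. Zone calls in males (1512) became 271 with normexp and 546 with slide as a block, and were 1036 to 1567 when 1 array was left out. Zone calls in females (1278) became 430, 523 and, without scaling, 2139, and were 902 to 1395. The cause was not tested. No value changed sign among the 12 called genes.

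Same-numbered captures of the 2 zones deviated together at correlations of -0.071 to 0.059, so the replicate numbers are not shown to pair the samples. With the replicate block 12 genes were called, 5 positive and 7 negative, 9 of them shared with the fit without it. Cyp2c37, Fads3 and B3galnt1 were no longer called (limma, adjusted p = 0.0968, 0.193 and 0.222), and the blocked fit called 1255 genes for zone in males and 1056 in females. The median standard error grew from 0.39 to 0.53 with slide as a block. Dim probes limit Kcnk1, Prom1 and Sdr16c5.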
